A study of Sus scrofa with 15 samples.

Results

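ZBTB genes encode transcription factors that carry a BTB domain near the amino terminus and a run of zinc fingers near the carboxy terminus. All genes of the count table whose symbol starts with ZBTB were taken as members, which gave 42 of 29886 genes. In 41 of them the symbol names a BTB zinc finger factor, and the remaining member, *ZBTB8OS*, encodes archease, a cofactor of tRNA ligation that shares only the letters of the symbol. The zinc fingers of these factors bind DNA, and the BTB domain lets them pair and recruit corepressor complexes that hold histone deacetylases. Several members direct the fate of lymphocytes. *ZBTB16* (PLZF) is required for innate-like T cells and is expressed in precursors of innate lymphoid cells, *ZBTB1* is required for lymphoid development, and *ZBTB7B* (ThPOK) directs CD4 T cells, while *ZBTB4*, *ZBTB33* and *ZBTB38* bind methylated DNA.

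Libraries of 3′ transcript ends covered 3 NK cell populations in each of 5 pigs aged 6 months, 1 per pig and population. Conventional NK (cNK) cells were the CD8α high NK cells of blood. The liver gave a CD8α high population and the CD8α dim cells termed liver-resident (lrNK), all sorted as cells without CD3 and CD172a. The liver cells were collected from fluid flushed through the portal vein of the same animals, and the labels name no treatment. Total counts ran from 2874092 to 3823973 in the cNK libraries, from 2886686 to 5680221 in the liver CD8α high libraries and from 2003499 to 3776823 in the lrNK libraries. Levels are given as CPM, counts scaled to a common library size. Counts of 3′ ends do not grow with transcript length, but how fully each gene's transcript end was counted was not tested. The B cell gene *CD79A*, for example, was at 0 in all libraries, and *CD79B* was at 50.8 CPM in lrNK cells. Ranks and shares between genes are uncertain to that extent, whereas comparisons of 1 gene between populations do not rest on them. The libraries are bulk RNA, so fewer cells of a type and less RNA per cell cannot be told apart.

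The labels were checked against genes of the sort and of NK cells. *CD8A*, which encodes the CD8α chain, was at 466 ± 149 CPM in cNK cells, 490.3 ± 138 in the CD8α high NK cells of liver and 43.4 ± 10.5 in lrNK cells (SD, n = 5). *NCR1*, which encodes the activating receptor NKp46, was at 50.8 ± 29.4, 54.7 ± 63.9 and 282 ± 83.3 CPM in the same order. *CD8A* in the lrNK libraries (29.5 to 57.0 CPM) did not overlap with the other populations. *NCR1* did, because the liver CD8α high library of pig 1 (167 CPM) was above the lrNK library of pig 3 (156 CPM) and the other liver CD8α high libraries (11.2 to 40.6 CPM). *EOMES*, a transcription factor of NK cells, was also higher in that library (217.5 CPM) than in the other liver CD8α high libraries (14.1 to 62.5 CPM), and below all lrNK libraries (442 to 813 CPM). The cNK library of pig 1 was likewise the highest cNK library for both genes. It had *NCR1* at 100.5 CPM (26.3 to 49.6 in the other cNK libraries) and *EOMES* at 74.0 CPM (20.2 to 44.4). On the second principal component the lrNK library of pig 3 scored 18.5, and the other libraries lay between -8.01 and 6.04. Its 9 NK cell markers summed to 3622 CPM, below the other lrNK libraries, which ran from 6219 to 11587 CPM. Among them *IL2RB* (381 CPM), *KLRB1* (193 CPM) and *KLRK1* (75.5 CPM) were the lowest of the lrNK libraries, whereas *NKG7* (1391 CPM) and *PRF1* (574 CPM) were the highest. On the first component the liver CD8α high library of pig 1 scored -4.19, nearer to the lrNK libraries (27.5 to 31.0) than the other liver CD8α high libraries (-12.8 to -19.0). Fits without either library were added after seeing the data.

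The family was broadly expressed in all 3 populations. In 9 members the mean level over all libraries was 100 CPM or more, and these made up 68.8% of the summed level of the family. A further 22 members lay between 10 and 100 CPM (30.0% of the sum), 7 between 1 and 10 CPM (1.27%) and 4 under 1 CPM (0.0159%). *ZBTB7A* was the most abundant member (339 CPM, 13.4% of the sum), followed by *ZBTB41* (282 CPM), *ZBTB38* (206 CPM), *ZBTB20* (204 CPM) and *ZBTB44* (198 CPM). The summed level was 2333 ± 215 CPM in cNK cells, 2479 ± 134 in the CD8α high NK cells of liver and 2784 ± 266 in lrNK cells (SD, n = 5), and although the ranges overlapped, the lrNK library had the highest sum of its pig in 5 of 5 pigs. *ZBTB38* alone was at 101 ± 20.6, 118 ± 30.4 and 399 ± 28.4 CPM in the same order. Much of the higher sum in lrNK cells therefore came from this gene and does not describe the family. The sum without it was not taken, and the difference in the sum was not tested.

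After the filter on low counts 38 members could be tested, among 10939 genes. The filter removed *ZBTB47* and *ZBTB8B*, which had 0 counts in all 15 libraries, *ZBTB7C*, with 6 counts in the cNK library of pig 1 and 0 elsewhere, and *ZBTB8A*, with 7 counts in the cNK libraries of each of pigs 3 and 4 and 0 elsewhere. Precision depended on the level: the median standard error of the log2 fold change between lrNK and cNK cells was 0.19 for members at 100 CPM or more, 0.31 between 10 and 100 CPM and 0.78 between 1 and 10 CPM.

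Liver-resident NK cells differed from cNK cells in 8 of the 38 members. *ZBTB38*, *ZBTB16*, *ZBTB1*, *ZBTB18*, *ZBTB43*, *ZBTB25* and *ZBTB32* were higher in lrNK cells, and *ZBTB4* was lower. The 7 higher members stand beside 8.62% of all tested genes that were higher in this comparison, and the 1 lower member beside 9.60% that were lower (edgeR, adjusted p under 0.05). The median log2 fold change was 0.13 over the members and 0.01 over all tested genes. Against liver CD8α high NK cells, 7 of 38 members differed. *ZBTB38*, *ZBTB18*, *ZBTB43*, *ZBTB32* and *ZBTB16* were higher in lrNK cells, 5 members beside 6.96% of all genes, and *ZBTB4* and *ZBTB41* were lower, 2 members beside 7.68% of all genes. The median was 0.03 over the members and 0.02 over all genes. The comparisons share the lrNK libraries and are therefore not independent of each other. *ZBTB32*, counted in both, passed the filter on low counts mainly through the lrNK libraries. Without pig 5 the count against liver CD8α high NK cells was 4, with 1051 genes called of 10953 tested, against 1601 of 10939 with all pigs.

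Between the 2 CD8α high populations, which address whether liver CD8α high NK cells are like those in blood, edgeR called 0 of 38 members, beside 0.0457% of all tested genes higher and 0.0183% lower in the liver. At an unadjusted p under 0.05 there were 4 of 38 members, beside 5.02% of all tested genes, and DESeq2 called 1, *ZBTB1*, beside 25 of 10939 genes. The median log2 fold change was 0.04 over the members and -0.02 over all genes. The fits without pig 3, and without its lrNK library alone, also called 1 member, again *ZBTB1*, beside 8 of 11003 and 12 of 11180 genes.

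Counting members whose libraries did not overlap between populations gave 4 higher and 2 lower in lrNK than in cNK cells, beside 13.5% of all tested genes in either direction. Between lrNK and liver CD8α high NK cells 4 members were higher and 3 lower without overlap, beside 11.9% of all genes. The 4 higher members include *ZBTB32*, which passed the filter on low counts mainly through the lrNK libraries. Between liver CD8α high NK cells and cNK cells 2 members were higher and 0 lower, beside 2.01% of all genes. Among these were *ZBTB10*, *ZBTB11*, *ZBTB33* and *ZBTB44*, which passed no threshold in edgeR. *ZBTB10*, *ZBTB11* and *ZBTB33* fall outside the rule for named genes and were chosen after their values were seen.

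**Figure D1:**
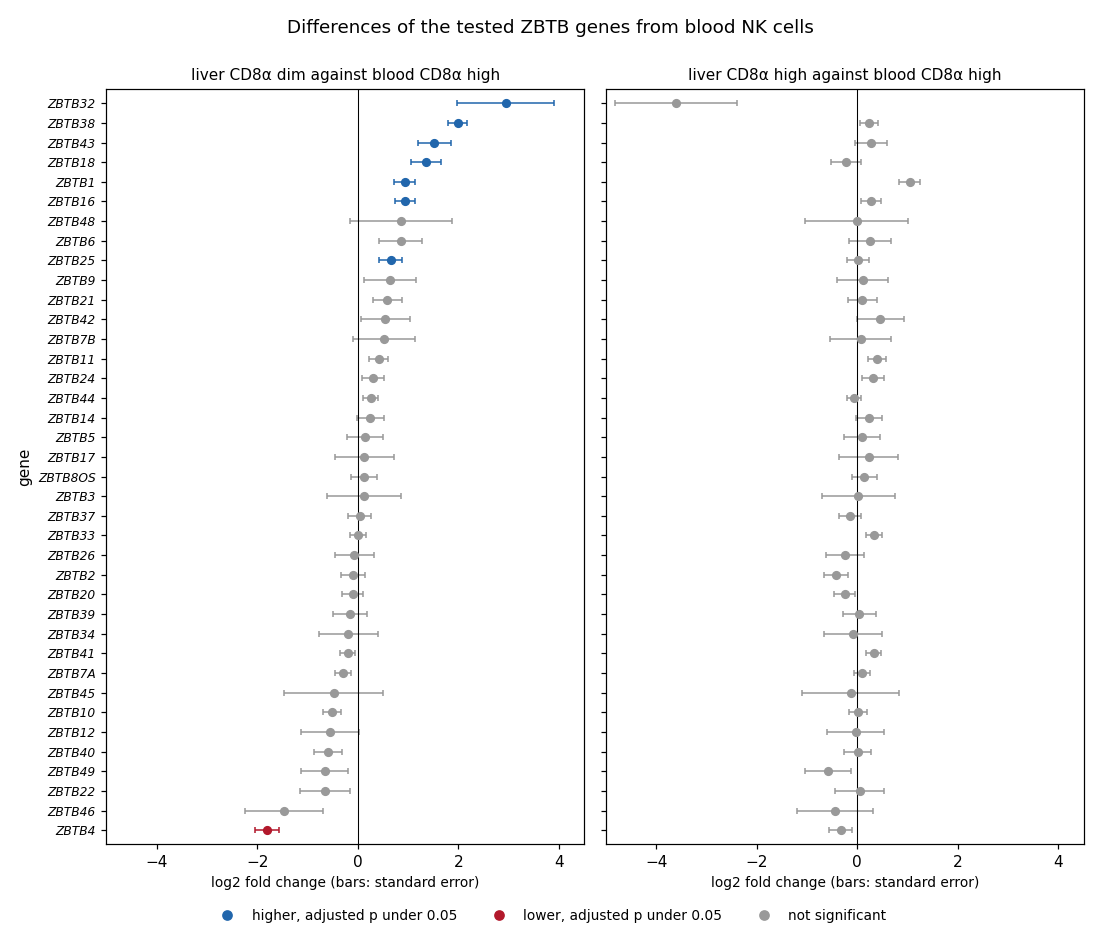
Log2 fold change of the 38 tested ZBTB genes (points, with the standard error as bars) in lrNK cells (left) and in liver CD8α high NK cells (right), each against cNK cells, with genes ordered by the left panel. In colour are the 7 higher and 1 lower members of the left panel with an adjusted p under 0.05, while the right panel has 0 such members.

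Methylated DNA is bound by 3 members, and in lrNK cells 1 was higher and 1 lower in either comparison, beside 8.62% and 9.60% of all tested genes against cNK cells and 6.96% and 7.68% against liver CD8α high NK cells. *ZBTB38*, a reader of methylated CpG sites, was at 97.6, 124, 95.8, 70.5 and 116 CPM in the cNK libraries of pigs 1 to 5. In liver CD8α high NK cells it was at 163, 97.8, 117, 128 and 83.4 CPM, and in lrNK cells at 417, 351, 407, 399 and 423 CPM. Every lrNK library lay above every library of the other populations, which overlapped with each other. *ZBTB38* rose 3.97-fold in lrNK cells against cNK cells (log2 fold change 1.99, SE 0.19, adjusted p = 1.20e-07, higher in 5 of 5 pigs) and 3.39-fold against liver CD8α high NK cells (1.76, SE 0.18, adjusted p = 6.65e-07, 5 of 5 pigs). It had the lowest adjusted p of the family in both comparisons. Liver CD8α high NK cells differed from cNK cells by 0.23 (SE 0.18, adjusted p = 1.00).

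*ZBTB4*, a repressor that also binds methylated CpG, moved the other way. It was at 129.5, 95.9, 98.2, 113 and 111 CPM in cNK cells of pigs 1 to 5 and at 84.9, 93.3, 83.1, 69.6 and 105 CPM in liver CD8α high NK cells. In lrNK cells it was at 40.3, 19.7, 22.4, 23.0 and 50.4 CPM. The lrNK libraries were the lowest 5, without overlap, and the CD8α high populations overlapped, with the liver library below the cNK library in 5 of 5 pigs. The log2 fold change was -1.80 against cNK cells (SE 0.24, adjusted p = 1.11e-05) and -1.47 against liver CD8α high NK cells (SE 0.24, adjusted p = 1.44e-04), lower in 5 of 5 pigs each. In the RefSeq table *ZBTB4* shares 14731 of its 15814 bases with *CHRNB1*, a subunit of the nicotinic acetylcholine receptor. *CHRNB1* was at 159.9 CPM in cNK cells, 136 in the CD8α high NK cells of liver and 72.6 in lrNK cells, and its log2 fold change between lrNK and cNK cells was -1.14 (SE 0.19, adjusted p = 1.41e-04). The strand setting of the counting is not given in the sources used here, so reads of the 2 genes cannot be told apart, and the level of *ZBTB4* is uncertain to that extent.

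*ZBTB33* (Kaiso), the third factor of this group, averaged 104 CPM in cNK cells (75.5 to 122 CPM), 131 in liver CD8α high NK cells (122 to 152 CPM) and 104 in lrNK cells (85.7 to 116 CPM). Its 5 lrNK libraries lay below the 5 liver CD8α high libraries, but the log2 fold change of -0.33 (SE 0.16) had an adjusted p of 0.208. Against cNK cells lrNK cells showed no measurable difference in *ZBTB33* (adjusted p = 0.996, SE 0.16).

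Among the 10 members grouped by a role in lymphocytes or other immune cells, 4 were higher and 0 lower in lrNK than in cNK cells, beside 8.62% and 9.60% of all tested genes (median log2 fold change 0.41). Against liver CD8α high NK cells 2 were higher and 0 lower, beside 6.96% and 7.68% of all tested genes (median 0.07). *ZBTB16* was at 119, 96.8, 95.2, 86.4 and 82.6 CPM in cNK cells of pigs 1 to 5. In liver CD8α high NK cells it was at 151, 129, 81.7, 124 and 97.7 CPM, and in lrNK cells at 191.5, 157, 222, 119.6 and 226 CPM. The lowest lrNK library, of pig 4, lay just above the highest cNK library, of pig 1, and overlapped with the liver CD8α high libraries. *ZBTB16* was 1.91-fold higher in lrNK than in cNK cells (log2 fold change 0.93, SE 0.20, adjusted p = 0.00197, 5 of 5 pigs), and the adjusted p stayed between 1.14e-04 and 0.0252 in the alternative fits. Against liver CD8α high NK cells the log2 fold change was 0.65 (SE 0.20, adjusted p = 0.0293, 4 of 5 pigs). The log2 fold change was 0.47 without pig 3 (adjusted p = 0.166), 0.51 without pig 5 (0.206), 0.58 without the lrNK library of pig 3 alone (0.0509), 0.74 without pig 2 (0.0569) and 0.65 with only these 2 populations in the fit (0.0595). It ranged from 0.47 to 0.80 over all alternatives, and its adjusted p from 0.0123 to 0.206.

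*ZBTB1* was at 29.5, 35.4, 39.9, 27.1 and 35.8 CPM in cNK cells of pigs 1 to 5, at 77.4, 63.5, 49.6, 76.5 and 78.6 CPM in the CD8α high NK cells of liver and at 51.1, 67.7, 44.8, 83.7 and 72.6 CPM in lrNK cells. All 10 liver libraries were above all 5 cNK libraries, and the liver populations overlapped. The log2 fold change between lrNK and cNK cells was 0.93 (SE 0.21, adjusted p = 0.00341, higher in 5 of 5 pigs). Between liver CD8α high NK cells and cNK cells it was 1.04 (SE 0.21, higher in 5 of 5 pigs), with an unadjusted p of 8.06e-05 and an adjusted p of 0.110 in edgeR. This difference passed the threshold in DESeq2 (adjusted p = 0.00465), with only these 2 populations in the fit (0.0277), without pig 3 (0.0264) and without the lrNK library of pig 3 alone (0.0219), and the range over all alternatives was 0.00465 to 0.616. The 2 liver populations differed by -0.11 (SE 0.21, adjusted p = 0.824).

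*ZBTB25* lies 27 bases from *ZBTB1* on chromosome 7. It was at 44.2, 43.6, 77.9, 47.7 and 51.5 CPM in cNK cells of pigs 1 to 5, and at 51.5, 47.2, 64.1, 40.3 and 65.7 CPM in liver CD8α high NK cells. In lrNK cells it was at 96.8, 71.5, 81.4, 56.4 and 109.7 CPM, above the cNK library of the same pig in 5 of 5 pigs but with overlap between the groups. The log2 fold change of 0.65 against cNK cells (SE 0.22) was close to the threshold (adjusted p = 0.0480). The adjusted p was 0.204 without pig 1, 0.129 without pig 2, 0.209 without pig 5, 0.0588 without the liver CD8α high library of pig 1, 0.0720 without the filter on low counts and 0.0841 with only the 2 populations, over a range of 0.0153 to 0.209, with log2 fold changes from 0.53 to 0.84. Against liver CD8α high NK cells the log2 fold change was 0.63 (SE 0.22, adjusted p = 0.0654). With the pig as a block it was significant (adjusted p = 0.0334), as it was in DESeq2 (0.0441), with the stricter filter (0.0463) and without pig 3 (0.0474), over a range of 0.0334 to 0.213, with log2 fold changes from 0.56 to 0.71. *ZBTB25* shares 5393 bases with *AKAP5*, which anchors protein kinase A, and 1736 bases with *MTHFD1*, an enzyme of folate metabolism. *AKAP5* was at 33.3 CPM in cNK cells and 267 CPM in lrNK cells (log2 fold change 3.01, SE 0.36, adjusted p = 3.18e-06), and *MTHFD1* at 25.5 and 55.6 CPM (1.13, SE 0.31, adjusted p = 0.0133). Reads of these overlapping genes cannot be told apart without the strand.

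*ZBTB32*, a repressor that restrains cytokine responses of lymphocytes and is needed for the expansion of NK cells in viral infection, was the scarcest member that differed. In cNK cells of pigs 1 to 5 it had 2, 0, 18, 7 and 1 counts, in liver CD8α high NK cells 0, 0, 2, 0 and 0 counts, and in lrNK cells 18, 54, 5, 70 and 36 counts. The lrNK libraries were all above the liver CD8α high libraries, while the lrNK library of pig 3 lay below the cNK library of the same pig. Over all libraries of a population the level in lrNK cells was 7.84 times that in cNK cells (95% exact interval 5.25 to 12.1) and 133 times that in liver CD8α high NK cells (36.3 to 1107), and liver CD8α high NK cells had 0.0589 times the level of cNK cells (0.00680 to 0.234). These intervals cover counting error only. All counts in liver CD8α high NK cells came from the library of pig 3, so the ratios that involve this population rest on 1 library. In edgeR the difference between lrNK and cNK cells had a log2 fold change of 2.94 (SE 0.96, adjusted p = 0.0365, 4 of 5 pigs). The call was lost without pig 1 (adjusted p = 0.0946), pig 2 (0.183), pig 4 (0.116) or pig 5 (0.114), over a range of 0.00724 to 0.183, with log2 fold changes in these 4 fits of 2.88, 2.21, 2.92 and 2.80. Without pig 3 the log2 fold change was 4.20, the highest of all alternatives, and with the pig as a block it was 3.68. The difference between lrNK and liver CD8α high NK cells had a log2 fold change of 6.54 (SE 1.23, adjusted p = 7.00e-04, 5 of 5 pigs). Over the 11 alternatives in which it could be tested, the log2 fold change ranged from 5.90 to 8.76 and the adjusted p from 7.17e-07 to 0.0111. The filter on low counts removed *ZBTB32* in the other 2, the stricter filter and the fit of only these 2 populations. In the main fit it passed the filter mainly through the lrNK libraries, as no liver CD8α high library had more than 2 counts. Its place among the tested genes thus depended on its high level in lrNK cells. The difference between the CD8α high populations had an unadjusted p of 0.00739 and an adjusted p of 0.668.

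Markers of B cells were highest in the lrNK libraries. The 5 genes on the list summed to 57.2, 51.8, 109, 41.2 and 10.9 CPM in cNK cells of pigs 1 to 5, to 44.2, 24.8, 14.5, 1.38 and 0 CPM in the CD8α high NK cells of liver, and to 433, 632, 214, 685 and 251 CPM in lrNK cells. *MS4A1* (CD20) was the most abundant, at 267 CPM in lrNK cells, and *CD79A* was at 0 in all 15 libraries. All 4 tested genes of the list were higher in lrNK cells, against cNK cells (beside 8.62% of all tested genes) and against liver CD8α high NK cells (6.96%). The part of B cells in the ZBTB differences was not tested.

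The remaining abundant lymphocyte factors showed no call. *ZBTB7A* (LRF), which directs the choice between B and T cells, was at 264, 386, 371, 354.5 and 393 CPM in cNK cells, at 403, 378, 357, 352 and 389 CPM in the CD8α high NK cells of liver and at 375, 235, 225, 293 and 313 CPM in lrNK cells of pigs 1 to 5. The populations overlapped, and lrNK cells were lower than cNK cells in 4 of 5 pigs, with the exception of pig 1. They were lower than liver CD8α high NK cells in 5 of 5 pigs (log2 fold change -0.38, SE 0.16, adjusted p = 0.119). Between lrNK and cNK cells the log2 fold change was -0.30 (SE 0.16, adjusted p = 0.222), and without pig 1 it was -0.49 (adjusted p = 0.0436, in a range of 0.0436 to 0.563). *ZBTB20*, which supports long-lived plasma cells and represses alpha-fetoprotein in liver, was at 220.1 ± 56.2, 185.5 ± 60.9 and 206 ± 29.8 CPM in cNK, liver CD8α high and lrNK cells (SD, n = 5), with overlap and no call. The other 4 members of the group were scarcer. *ZBTB24*, which is mutated in an immunodeficiency with centromere instability, was at 33.3, 41.3 and 40.7 CPM in the same order, *ZBTB7B* at 6.48, 6.82 and 9.28 CPM, and *ZBTB17* (MIZ1), a partner of MYC, at 5.14, 6.01 and 5.59 CPM. *ZBTB46*, a factor of classical dendritic cells, was at 5.21, 3.88 and 1.84 CPM, and its log2 fold change of -1.47 between lrNK and cNK cells had a standard error of 0.78 (adjusted p = 0.224).

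**Figure D2:**
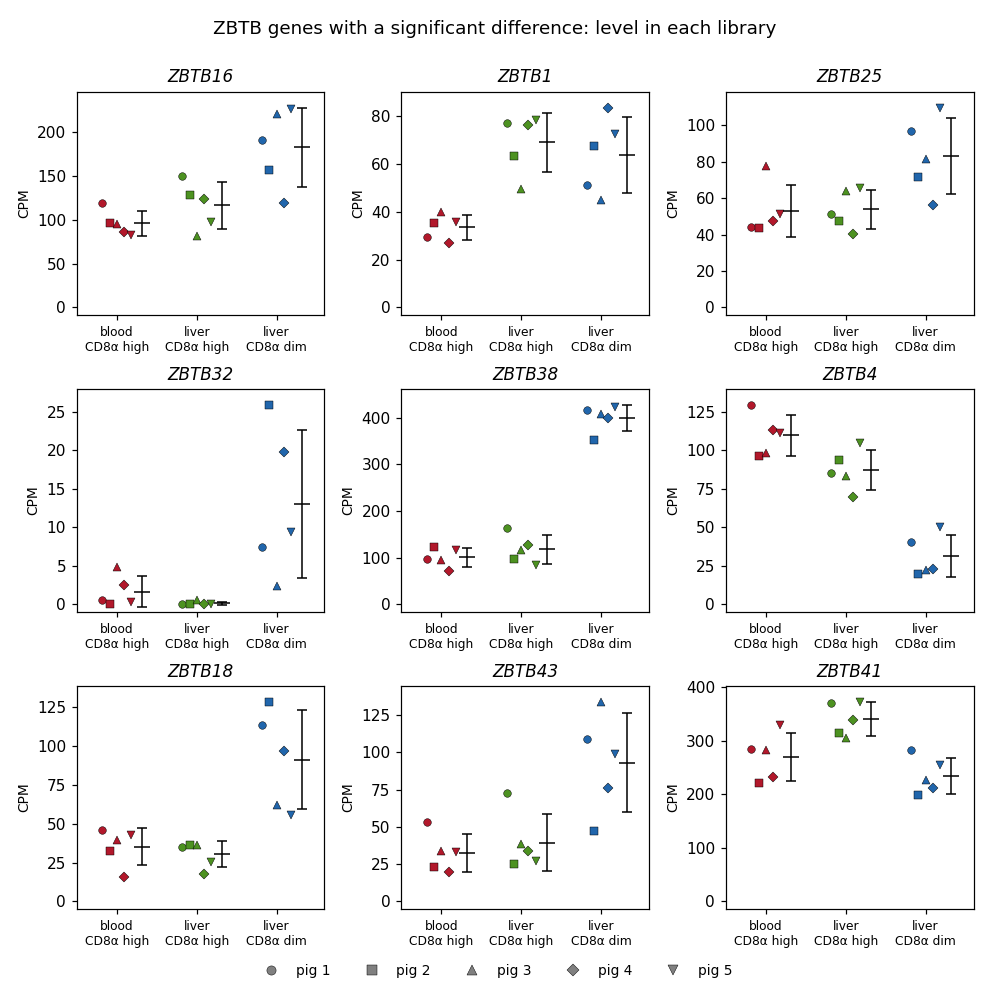
Level in CPM of the 9 ZBTB genes with an adjusted p under 0.05 in at least 1 comparison, for each of the 5 pigs (symbols) in cNK cells (blood CD8α high), liver CD8α high NK cells and lrNK cells (liver CD8α dim), with the mean and the SD as bars and a scale of its own for each gene. The lrNK libraries of *ZBTB38* (351 to 423 CPM) lie above, and those of *ZBTB4* (19.7 to 50.4 CPM) below, all other libraries, and the liver libraries of *ZBTB1* lie above its cNK libraries, a difference called for lrNK cells but not for liver CD8α high NK cells (adjusted p = 0.110).

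Of the 3 members linked to telomeres, 0 were called by edgeR or DESeq2 with all libraries. Of all tested genes, edgeR called 8.62% higher and 9.60% lower in lrNK than in cNK cells. Against liver CD8α high NK cells it called 6.96% higher and 7.68% lower. DESeq2 called 2322 and 1853 of 10939 genes in these 2 comparisons. At an unadjusted p under 0.05 *ZBTB10* and *ZBTB40* were lower in lrNK cells, beside 29.5% of all tested genes at that p against cNK cells and 24.9% against liver CD8α high NK cells. *ZBTB10* was at 65.6, 70.7, 68.7, 65.8 and 79.2 CPM in cNK cells and at 44.9, 62.4, 40.4, 48.3 and 49.9 CPM in lrNK cells of pigs 1 to 5, without overlap (log2 fold change -0.51, SE 0.18, adjusted p = 0.0597, lower in 5 of 5 pigs). *ZBTB40*, chosen after its values were seen, was at 36.9 ± 8.05 CPM in cNK cells, 37.2 ± 3.68 in liver CD8α high and 24.5 ± 11.5 in lrNK cells (SD, n = 5), with lrNK cells lower in 4 of 5 pigs in either comparison. Its log2 fold change of -0.60 against cNK cells (SE 0.28, adjusted p = 0.148) was -0.86 without pig 2 (0.0499, in a range of 0.0499 to 0.503). That of -0.61 against liver CD8α high NK cells (SE 0.27, adjusted p = 0.163) was -0.96 without pig 2 (0.0345, in a range of 0.0345 to 0.460). The scarce *ZBTB48* (TZAP), which binds telomere repeats, was at 2.47 ± 2.42 CPM in cNK and 4.58 ± 5.48 CPM in lrNK cells.

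Of the other 21 tested BTB zinc finger members, 2 were higher and 0 lower in lrNK than in cNK cells, beside 8.62% and 9.60% of all tested genes. In the comparison with liver CD8α high NK cells 2 were higher and 1 lower, beside 6.96% and 7.68%. *ZBTB18* (RP58), a repressor best known from neuronal development, was at 46.1, 32.3, 39.6, 15.9 and 42.6 CPM in cNK cells of pigs 1 to 5 and at 35.2, 36.4, 36.5, 17.9 and 25.6 CPM in liver CD8α high NK cells. In lrNK cells it was at 113, 129, 61.9, 96.6 and 55.6 CPM. All lrNK libraries were above all others, and the CD8α high populations overlapped. *ZBTB18* was 2.57-fold higher in lrNK than in cNK cells (log2 fold change 1.36, SE 0.30, adjusted p = 0.00220) and 3.01-fold higher than in liver CD8α high NK cells (1.59, SE 0.30, adjusted p = 6.67e-04), in 5 of 5 pigs each.

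*ZBTB43* was at 53.1, 22.8, 33.6, 19.9 and 32.8 CPM in cNK cells of pigs 1 to 5, at 72.5, 25.3, 38.2, 33.6 and 27.2 CPM in the CD8α high NK cells of liver and at 109, 47.0, 134, 76.1 and 99.2 CPM in lrNK cells. The lrNK level was the highest of the pig in 5 of 5 pigs, but the groups overlapped because pig 2 was low in lrNK cells and pig 1 high in the other populations. The log2 fold change was 1.52 against cNK cells (SE 0.33, adjusted p = 0.00207) and 1.25 against liver CD8α high NK cells (SE 0.32, adjusted p = 0.0108). The second was lost without pig 3 (adjusted p = 0.0596) and without pig 5 (0.0844), over a range of 5.36e-04 to 0.0844, with log2 fold changes from 1.07 to 1.58.

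*ZBTB41* was highest in liver CD8α high NK cells. It was at 285, 220.4, 284, 232 and 329 CPM in cNK cells of pigs 1 to 5, at 370.2, 315, 305, 339.9 and 373 CPM in the CD8α high NK cells of liver and at 283, 198, 226.5, 211 and 254 CPM in lrNK cells. The 2 liver populations did not overlap, and cNK cells overlapped with both. The log2 fold change between lrNK and liver CD8α high NK cells was -0.54 (SE 0.15, adjusted p = 0.0168, lower in 5 of 5 pigs). The call was lost without pig 2 (adjusted p = 0.0631), pig 4 (0.0649) or pig 5 (0.0593), over a range of 0.00623 to 0.0649, with log2 fold changes from -0.58 to -0.50. Liver CD8α high NK cells were above cNK cells in 5 of 5 pigs by 0.33 (SE 0.15), at an unadjusted p of 0.0352 and an adjusted p of 0.947.

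*ZBTB44*, the fifth most abundant member, was at 187.5 ± 31.3 CPM in cNK cells, 180.4 ± 14.9 in the CD8α high NK cells of liver and 225 ± 22.0 in lrNK cells (SD, n = 5). The lrNK libraries (196 to 248 CPM) lay above the liver CD8α high libraries (155 to 192 CPM), and the log2 fold change of 0.32 (SE 0.15) had an adjusted p of 0.170. *ZBTB11* was at 106.5 ± 12.9, 141 ± 15.1 and 143 ± 44.2 CPM in the same order, with the liver CD8α high libraries (127 to 165 CPM) above the cNK libraries (91.8 to 126 CPM) and an adjusted p of 0.981 for the log2 fold change of 0.40 (SE 0.18). *ZBTB8OS* was at 36.5 ± 8.22, 40.4 ± 8.63 and 40.0 ± 11.8 CPM, with log2 fold changes from -0.01 to 0.14. The lrNK library of pig 3 had 0 counts of *ZBTB34*, 1 of *ZBTB22* and 2 of *ZBTB12*, genes with at least 22, 27 and 23 counts in the other lrNK libraries. These genes were chosen after their values were seen, and other scarce members went the other way. *ZBTB42* had 59 counts in this library and 14 to 31 in the other lrNK libraries. *ZBTB48* had 29 counts, with 1 to 8 in the others.

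The members are spread over 13 chromosomes of Sscrofa11.1, with 9 on chromosome 6 and 8 on chromosome 1, and *ZBTB42* is on a scaffold without a chromosome. All 42 symbols were found in the RefSeq table. *ZBTB38* lies on chromosome 13 from 82053887 to 82195321, *ZBTB4* on chromosome 12 from 52759912 to 52775725, and *ZBTB16* on chromosome 9 from 41639536 to 41839254. *ZBTB25* (88531955 to 88575535) and *ZBTB1* (88575563 to 88602726) are neighbours on chromosome 7, and *ZBTB43* (267391575 to 267410947) lies 26040 bases before *ZBTB34* on chromosome 1. *ZBTB18* lies on chromosome 10 from 16913022 to 16921722, *ZBTB41* on the same chromosome from 20046236 to 20089945, and *ZBTB32* on chromosome 6 from 45140573 to 45145903. Another gene of the table overlaps 13 members. *ZBTB16* shares 10593 bases with a long non-coding RNA gene that had 747 counts in all libraries together, and *ZBTB33* shares 1401 bases with *TMEM255A*, so their levels carry the same uncertainty over strand. *ZBTB6* and *ZBTB26* share 15685 bases, so their levels (10.7 and 15.5 CPM in cNK cells) are uncertain, and 0 of these 2 was called by edgeR in any comparison or reached an unadjusted p under 0.05.

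Of 8 BTB zinc finger genes with other names, 7 were tested, and between lrNK and cNK cells 1 was higher and 1 lower, beside 8.62% and 9.60% of all tested genes (median log2 fold change 0.05). *HIC1*, a repressor silenced in many tumours, was at 1.35, 0.548, 7.33, 0 and 1.71 CPM in cNK cells of pigs 1 to 5, at 11.4, 5.80, 3.62, 4.83 and 9.31 CPM in the CD8α high NK cells of liver and at 23.7, 11.5, 7.31, 16.3 and 22.5 CPM in lrNK cells. The lrNK library was above the cNK library in 4 of 5 pigs, all but pig 3. Between lrNK and cNK cells the log2 fold change of *HIC1* was 2.85 (SE 0.72, adjusted p = 0.00725), a call lost without pig 1 (0.0542) or pig 5 (0.0579), over a range of 1.45e-04 to 0.0579, with log2 fold changes from 2.55 to 4.29. *ZNF131* was at 141 ± 24.3 CPM in cNK cells, 134 ± 14.0 in the CD8α high NK cells of liver and 86.1 ± 17.0 in lrNK cells (SD, n = 5). It fell in lrNK cells against cNK cells (-0.71, SE 0.17, adjusted p = 0.00592, 5 of 5 pigs) and was the 1 gene of the list called against liver CD8α high NK cells, beside 7.68% of all tested genes that were lower (-0.64, SE 0.17, adjusted p = 0.0146), a call lost without pig 1 (0.0556), pig 3 (0.0700) or pig 5 (0.0882), over a range of 0.00557 to 0.0882, with log2 fold changes from -0.78 to -0.52. *BCL6*, which restrains inflammatory gene programmes in lymphocytes, ran from 21.8 to 49.7 CPM in cNK cells, from 21.0 to 41.9 in the liver CD8α high population and from 7.30 to 34.5 in lrNK cells, without a call.

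Of 30 corepressor and partner genes, 28 were tested, and 2 were higher and 2 lower in lrNK than in cNK cells, beside 8.62% and 9.60% of all tested genes (median log2 fold change -0.06). The histone deacetylase *HDAC1* was at 156, 166, 172, 158 and 136 CPM in cNK cells of pigs 1 to 5 and at 69.4, 76.8, 122, 90.4 and 64.3 CPM in lrNK cells, without overlap (-0.90, SE 0.18, adjusted p = 8.27e-04). *CHD3*, a remodeller of the NuRD complex, was at 86.8 ± 6.23 CPM in cNK cells and 47.0 ± 7.99 in lrNK cells, also lower in 5 of 5 pigs (log2 fold change -0.88, SE 0.17, adjusted p = 7.54e-04). The class IIa deacetylase *HDAC7* was higher, at 196 ± 46.8 and 373 ± 122 CPM (0.93, SE 0.22, adjusted p = 0.00392, 4 of 5 pigs), and so was *GPS2*, a subunit of the NCOR complex, at 64.5 ± 19.9 and 108 ± 30.8 CPM (0.74, SE 0.25, 5 of 5 pigs). The adjusted p of *GPS2* was 0.0464, and it was 0.143 without pig 1, 0.109 without pig 2, 0.156 without pig 3, 0.0620 without the lrNK library of pig 3 alone and 0.0635 with only the 2 populations, over a range of 0.0273 to 0.156, with log2 fold changes from 0.57 to 0.91. Against liver CD8α high NK cells 2 were higher (*HDAC7* and *GPS2*) and 3 lower (*HDAC1*, *CHD3* and *BCOR*), beside 6.96% and 7.68% of all tested genes, with a median of -0.14. *BCOR*, which *BCL6* recruits, was at 107 ± 23.3 CPM in the CD8α high NK cells of liver and 61.1 ± 23.4 in lrNK cells (-0.80, SE 0.26, adjusted p = 0.0385, 5 of 5 pigs). This call was lost with only the 2 populations (0.0806) and without pig 2 (0.0904), 3 (0.102), 4 (0.132) or 5 (0.0765), over a range of 0.0181 to 0.132, with log2 fold changes from -0.96 to -0.56.

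The other calls of this comparison were *HDAC7* (1.01, SE 0.22, adjusted p = 0.00224), with a range of 9.19e-05 to 0.0179, and 3 that passed the threshold with all pigs but not without some of them. *GPS2* (0.85, SE 0.25, adjusted p = 0.0254) was at 0.0569 without pig 1, 0.112 without pig 3, 0.0725 without pig 4 and 0.0651 without pig 5, over a range of 0.00965 to 0.112, while its log2 fold change stayed between 0.68 and 1.03. *HDAC1* (-0.66, SE 0.17, adjusted p = 0.0121) was at 0.0502 without pig 1, 0.0952 without pig 2 and 0.0816 without pig 5, over a range of 5.16e-04 to 0.0952, with log2 fold changes from -0.83 to -0.57. *CHD3* (-0.62, SE 0.17, adjusted p = 0.0157) was at 0.0574 without pig 2 and 0.0910 without pig 5, over a range of 0.00544 to 0.0910, with log2 fold changes from -0.70 to -0.58. *BCOR* shares 10903 bases and *CHD3* 480 bases with genes known only by locus numbers, so their levels are uncertain to that extent. The count of 5 fell to 2 without pig 2, 3 without pig 3, 3 without pig 4 and 1 without pig 5, while the count over all genes fell from 1601 to 1197, 1453, 1227 and 1051. Between the CD8α high populations edgeR and DESeq2 called 0 genes of this list and of the BTB zinc finger genes with other names, and at an unadjusted p under 0.05 there were 4 of 28 and 1 of 7, beside 5.02% of all tested genes.

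Further genes of both lists, chosen after their values were seen, were called only in some alternatives. *CUL3*, a ubiquitin ligase scaffold that binds BTB proteins, had a log2 fold change of 0.37 between lrNK and cNK cells (SE 0.33, adjusted p = 0.516, 4 of 5 pigs). It was 0.66 without pig 3 (0.0160) and without the lrNK library of pig 3 alone (0.00698), over a range of 0.00698 to 0.848. The value against the liver CD8α high population was 0.25 (SE 0.33, adjusted p = 0.718) and, without that library, 0.52 (0.0360, in a range of 0.0360 to 0.935). *GZF1* had 0.71 between lrNK and cNK cells (SE 0.42, adjusted p = 0.274, 4 of 5 pigs) and 0.99 without that library (0.0284, in a range of 0.0284 to 0.642). *EED*, of the polycomb complex, had 0.48 in the same comparison (SE 0.27, adjusted p = 0.251, 4 of 5 pigs), 0.77 without pig 3 (0.0346) and 0.67 without that library (0.0395), over a range of 0.0346 to 0.574. *DNMT1*, the maintenance DNA methyltransferase, had -0.49 (SE 0.22, adjusted p = 0.146, lower in 4 of 5 pigs) and -0.77 without pig 1 (0.0240, in a range of 0.0240 to 0.465). *DNMT1* had -0.64 against liver CD8α high NK cells (SE 0.22, adjusted p = 0.0603, lower in 4 of 5 pigs), and it was called without pig 1 (0.0153), in DESeq2 (0.0438) and without the filter on low counts (0.0412), over a range of 0.0153 to 0.251.

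Markers of 6 further cell types were summed in the same way. The 7 T cell markers summed to 880.0, 841 and 299.5 CPM in cNK, liver CD8α high and lrNK cells, nearly all of it *CD3G* (865, 824.5 and 289 CPM), and CD4, CD5 and *CD28* were at 0 in all libraries. Of 3 tested T cell markers 1, *CD3G*, was lower in lrNK cells in both comparisons. This stands beside 9.60% of all tested genes that were lower against cNK cells and 7.68% against liver CD8α high NK cells. With the pig as a block *CD3E* was also lower in lrNK than in liver CD8α high NK cells (adjusted p = 0.0418, 4 of 5 pigs, 2.12 against 9.03 CPM), beside 8.54% of all tested genes. Its counts in pigs 1 to 5 were 2, 95, 0, 82 and 22 in liver CD8α high NK cells and 0, 8, 0, 24 and 0 in lrNK cells. Most of them came from pigs 2 and 4. *CD3D* went the other way against cNK cells (8.43 against 3.78 CPM, log2 fold change 1.15, SE 0.57, adjusted p = 0.188, higher in 4 of 5 pigs) and was not called. The 6 monocyte and macrophage markers summed to 2.69, 0.951 and 9.95 CPM, led in lrNK cells by *LYZ*, with *CSF1R* and *CD163* at 0. *LYZ*, at 8.56 CPM in lrNK cells, was higher than in liver CD8α high NK cells (0.365 CPM, adjusted p = 0.0272, 4 of 5 pigs) but was not called against cNK cells (2.30 CPM). With the pig as a block the adjusted p of the first difference was 0.0512, so that it was not called. The dendritic cell markers (4 of 5 in the table) summed to 0.879, 1.10 and 9.75 CPM, led in lrNK cells by *XCR1*, with *CLEC9A* at 0. *XCR1* had 9 to 40 counts in the lrNK libraries and at most 1 count in each of the others, so it passed the filter on low counts through the lrNK libraries. The 5 hepatocyte markers summed to 0, 0.345 and 2.70 CPM, all of it *ALB*, and the 5 endothelial markers to 5.10, 2.74 and 9.64 CPM, nearly all of it *PECAM1*, with *STAB2*, *LYVE1* and *CDH5* at 0. Red cell and platelet markers (3 of 5 in the table) summed to 65.3, 12.7 and 10.7 CPM, led by *HBB*, and to 315 CPM in the cNK library of pig 4. The part of these cells in the ZBTB differences was not tested.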

How the data were processed

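NK cells of blood and liver from the same 5 pigs were sorted, and 3′ mRNA libraries (QuantSeq) were sequenced. The authors trimmed the reads with QuasR and aligned them to Sscrofa11.1 (HISAT2 in the submitters' processing notes), and the deposited values are whole-number counts per gene and library, not normalized. Which tool counted, with what strand setting and what treatment of reads with several alignments, is not given in the sources used here. The labels assign each of the 15 columns a population and a pig.

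Differences were computed by edgeR 4.0.16 (R 4.3.3) with TMM normalization, its standard low-count filter per population, which left 10939 genes, the quasi-likelihood test with all 15 libraries in 1 fit, and Benjamini-Hochberg adjustment over all genes tested, with a threshold of 0.05. The standard error is the log2 fold change divided by the square root of F. CPM use the TMM-scaled library size of the filtered genes. Alternatives were DESeq2 1.42.0, its size factors in edgeR, no filter, a filter of 50 counts in 5 libraries, the pig as a block, only the 2 populations compared, and each pig left out. Leaving out the lrNK library of pig 3 or the liver CD8α high library of pig 1 was chosen after seeing the data. The tests were tried on simulated counts with known changes. Plots came from matplotlib 3.10.9 under Python 3.11.15.

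Libraries are paired because the paper's methods and the labels give the same animals. The mean correlation of deviations from the population means was 0.0907 between libraries of a pig and -0.0226 between pigs. These deviations sum to 0 over the pigs of a population, so the second value largely follows from the first and is no separate baseline. By pig the mean ran from 0.0500 to 0.115, so libraries of a pig were only weakly correlated in these deviations. Replicate libraries differed beyond sampling noise in all 30 pairs (chi-square per degree of freedom 9.82 to 51.3).

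The members, the gene lists and the markers were chosen with earlier results of these data known. Named in full were members with an adjusted p under 0.05 in any comparison, *ZBTB16*, *ZBTB38* and *ZBTB1*, and the 5 members with the highest mean level, and from the other lists, of the genes called in any comparison, the 6 with the lowest p. *BCOR*, the remaining called gene, was added after its values were seen. Principal components were taken over 500 genes, those of highest variance once DESeq2 had stabilized it. Positions came from the RefSeq table for Sscrofa11.1, in which strands are missing.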

Additional observations from a re-analysis of the deposited data

Results flagged for a closer look

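In 57 groups of 5 libraries (19 named genes in 3 populations), 6 had 1 library whose gap to the nearest of the others exceeded Dixon's 95% critical value for 5 samples. Chance flags about 1 in 20 groups. *ZBTB20* was at 290.4 CPM in the liver CD8α high library of pig 5 and between 145.6 and 186 CPM in the others. *ZBTB43* was at 72.5 CPM in the liver CD8α high library of pig 1, with 25.3 to 38.2 CPM in the others. *ZBTB25* was at 77.9 CPM in the cNK library of pig 3, with 43.6 to 51.5 CPM in the others. *HIC1* was at 7.33 CPM in the same library, with 0 to 1.71 CPM in the others. *BCOR* was at 68.0 CPM in the cNK library of pig 1, below the 101 to 108 CPM of the others. *ZBTB32* was at 0.558 CPM (2 counts) in the liver CD8α high library of pig 3 and at 0 in the others. With all the others at 0, any count would have been flagged, so the rate of 1 in 20 does not apply to this flag.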

How the results depend on the processing

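In the comparison of lrNK with cNK cells, 6 to 8 members were called in every alternative run, against 8. The count over all genes ran from 1472 without pig 5 to 2322 in DESeq2, against 1993. *ZBTB38*, *ZBTB16*, *ZBTB1*, *ZBTB18*, *ZBTB43* and *ZBTB4* passed the threshold in each alternative of this comparison. The stricter filter removed *ZBTB32*, and so did the filter in the fit of only the CD8α high populations or only the liver populations. Over the named genes and their alternatives, 303 values past the threshold stayed past it in the same direction, 44 did not, 377 values short of it stayed short, and 9 passed it; 0 reversed among those past the threshold. Between liver CD8α high NK cells and cNK cells the count of ZBTB genes was 1 instead of 0 in DESeq2 and with only these 2 populations in the fit, and 0 to 1 with a pig or library left out. The count over all genes was 25 in DESeq2, 18 without the filter and 16 with only the 2 populations, against 7, and 0 to 12 with a pig or library left out. Between lrNK and liver CD8α high NK cells, leaving out a pig or library gave 4 to 7 ZBTB genes and 1051 to 1764 genes in all, against 7 and 1601, 0 to 1 BTB zinc finger gene with another name against 1, and 1 to 6 corepressor genes against 5. Between lrNK and cNK cells the BTB zinc finger genes with other names numbered 1 with the stricter filter, which removed *HIC1*, and 1 to 3 with a pig or library left out, against 2. Apart from the stricter filter, the causes were not tested. With the pig as a block the counts of ZBTB genes were 8, 0 and 8, against 8, 0 and 7. The order is lrNK against cNK, liver CD8α high against cNK and lrNK against liver CD8α high. Over all genes the counts were 2120, 8 and 1716, against 1993, 7 and 1601. *ZBTB25* in the last comparison was the 1 gene named by the rule whose call changed. Genes outside the rule that passed the threshold in some alternative were *ZBTB40*, *GZF1*, *CUL3*, *EED* and *DNMT1*. The scarce members were measured with less precision: with 1 to 10 CPM the median standard error was 0.78, and log2 fold changes well above that size could be missed. That of *ZBTB46* between lrNK and cNK cells, -1.47 (SE 0.78), was not called by edgeR (adjusted p = 0.224). Counting error and variation between pigs were not separated in the standard error.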
